A study of Mus musculus with 25 samples.

Results

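The genes of respiratory complexes II to V were examined in RNA-seq of mouse HSLAM cells, the LSK+ CD150+ CD48- fraction of bone marrow in which hematopoietic stem cells are enriched. Members were chosen by symbol, as the genes of the deposited table whose name starts with Sdha, Sdhb, Sdhc, Sdhd, Uqcr, Cox4, Cox5, Cox6, Cox7, Cox8 or Atp5, together with Cyc1 and Cycs. This rule found 56 of 23116 genes. They comprise 4 genes of complex II and 4 of its assembly factors, 9 genes of complex III, the cytochrome c gene Cycs, 16 genes of complex IV, 15 of complex V, Atp5s, whose product is known as coupling factor B, and 6 pseudogenes named after subunits.

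The study asked what loss of the zinc finger protein ZNF143 does to chromatin contacts and gene expression in blood stem and progenitor cells. RNA came from 3 Znf143 f/f x Rosa26ERT2-Cre- mice (here Znf143 f/f) and 3 Znf143 f/f x Rosa26ERT2-Cre+ mice (here Znf143 -/-), all adult C57BL/6 males of 8 to 12 weeks treated for 10 days with tamoxifen at the dosage called middle. Per the study's methods the mice were littermates, in 3 pairs, and the sources used here do not tie libraries to pairs. Both genotypes thus carried the floxed alleles and received the drug, while Cre was present in the deleted mice alone, so deletion and Cre activity cannot be told apart. The Rosa26 locus is active in most tissues, so deletion of exon 1 was not restricted to blood cells. The labels of the deleted libraries name a CTCF knockout. Zfp143, the mouse symbol of Znf143, was at a rescaled FPKM of 3.09, 4.45 and 3.68 in Znf143 f/f and 0.156, 0.299 and 0.272 in Znf143 -/- libraries (log2 fold change -3.50, SE 0.239, adjusted p = 0.0010 from limma). Ctcf was at 30.3 to 32.7 in Znf143 f/f and 26.7 to 31.9 in Znf143 -/- libraries, with overlap (adjusted p = 0.468 from limma). Groups were taken from the titles, which give wild type and knockout.

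In the respiratory chain, complex II oxidises succinate and passes the electrons to ubiquinone, complex III hands them on to cytochrome c, and complex IV gives them to oxygen. Complexes III and IV move protons across the inner mitochondrial membrane, and complex V, the ATP synthase, lets them flow back to make ATP. Complex II is built from nuclear genes alone, whereas complexes III, IV and V join many nuclear-encoded subunits to a few that the mitochondrial genome encodes. Hematopoietic stem cells are known to lean on glycolysis at rest and to need respiration when they differentiate.

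Expression is given as rescaled FPKM, the deposited fragments per kilobase of listed gene length, scaled to library size, divided by a median-of-ratios size factor for each library. With this scaling the log2 fold change, taken as Znf143 -/- over Znf143 f/f, had a median over the tested genes of 0.01, against 0.11 on the values as deposited. The libraries held 38643255 to 57895793 fragments on genes. Levels are compared between genes per listed length, which covers the annotated exons of a gene and can be far longer than the main transcript.

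The 6 libraries were not equally alike. The mean chi-square per gene between recovered fragments, over genes with at least 200 fragments in both libraries together, was 6.52 for Znf143 f/f 1 against Znf143 f/f 3 and 9.17 for Znf143 -/- 2 against Znf143 -/- 3. For the other 13 of 15 pairs it was 109.9 to 275. Sampling noise alone would give about 1, and both close pairs were kept as separate libraries because they exceeded it. Repeated preparations of 1 RNA could exceed it too, so whether the libraries of a close pair came from separate mice is not shown by these values, and each SD, SE and p over 3 libraries rests on the study's statement that they are biological replicates. Znf143 f/f 2 and Znf143 -/- 1 stood apart from the close pair of their genotype. In them, genes of at most 1000 bases other than members took 8.53% and 9.04% of fragments, against 6.64% to 7.17% in the other 4 libraries. Most of the spread within a genotype is the distance of 1 library from a close pair, and results are therefore also given without these 2 libraries, with a coefficient for them, or with each close pair counted once. Of the stem cell markers, Kit, Procr and Slamf1 were detected in all libraries. Cd48 and Flt3, which are low in the sorted gate, rose from 10.2 ± 0.851 to 20.01 ± 0.472 and from 5.19 ± 0.214 to 15.9 ± 0.234 (SD, n = 3). Ly6a rose and Mecom fell, so that 4 of 10 markers were called by limma, beside 5.98% of all genes.

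ZNF143 binds promoters close to the start site, and a well known form of its site joins the letters ACTACAA to CCCANNATG, where N is any base. Promoters of 300 bases from RefSeq (GRCm38.p6), reaching from 250 bases before to 50 after a start site, were matched for 40 of the 56 members. The 16 others were not searched, among them Uqcrb, Uqcrc2, Uqcrq, Cyc1, Cox4i1, Cox6c, Sdhc and Atp5a1. ACTACAA was present on either strand in 6 of these 40 genes (15%), Atp5c1, Atp5d, Atp5o, Cox5b, Cox7c and Uqcr10, and in 3.24% of all 32851 promoters. For each set of letters, a member counted once if any of its promoters held them (43 promoters for the 40 genes). The share of all promoters counts each promoter, so the 2 shares differ in unit. CCCANNATG was present in 2 genes (5.0%), Atp5d and Atp5o, and in 5.01% of all promoters. Both sets of letters were present in the same 2 genes and in 0.378% of all promoters. The stretches of 30 bases shown here belong to the 4 genes in which ACTACAA lay nearest to the start, with Uqcr10, the member with the lowest log2 fold change, among them. Each reads from 5′ to 3′ on the strand of the gene, and capitals mark ACTACAA and, where present, CCCANNATG.
Uqcr10: agagaaACTACAAttcccataaagcagggc
Cox7c: atctaaACTACAAagcccacaaacctcaga
Atp5d: aagaaaACTACAAttCCCAGAATGacccac
Atp5o: gtacggACTACAActCCCAGCATGcaagag

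The stretch of Uqcr10 is chr11:4704379-4704408 on the minus strand, with the letters starting 58 bases before the start site, and another copy of ACTACAA lies on the other strand 226 bases before it. That of Cox7c is chr13:86046841-86046870 on the minus strand, 69 bases before the start. Those of Atp5d (chr10:80142187-80142216, plus strand, 82 bases) and Atp5o (chr16:91931692-91931721, minus strand, 85 bases) hold both sets of letters. The 6 genes with ACTACAA had log2 fold changes of -1.01 (Uqcr10), -0.50 (Cox7c), -0.32 (Atp5d), 0.07 (Atp5c1), 0.08 (Atp5o) and 0.19 (Cox5b), and none of them passed the test. Of the letters of other factors, GCGCANGCG (NRF1) was present in 15 of the 40 genes (37.5%) and 6.25% of all promoters, and CCGGAAG (ETS family) also in 15 genes (37.5%) and 8.86% of all promoters. AAGATGGC (YY1) was present in 3 genes (7.5%), Atp5f1, Atp5j and Atp5j2, and 2.75% of all promoters. A match is a description of these letters and not a bound site.

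After deletion of Znf143, no member passed the test. Among members with a mean rescaled FPKM of at least 1, the lowest log2 fold changes belonged to 2 genes of complex III, Uqcr10 and Uqcrb, at 50.8% and 60.3% of the Znf143 f/f mean. All 56 members passed the filter on low values (a mean of at least 0.1), and 0 of 56 had an adjusted p under 0.05 from limma, against 1154 of 19293 tested genes (5.98%). At an unadjusted p under 0.05 there were 4 members, 3 of them lower, against 24.2% of all genes, and limma's voom on recovered fragments called 1 member, Uqcrb, and 7.26% of all genes. The median log2 fold change of the members was 0.07, with 20 of 56 below 0. It was -0.11 without Znf143 -/- 1 and -0.01 without Znf143 f/f 1, and 0.15 without Znf143 f/f 2. In bulk RNA, fewer cells of a type and less RNA per cell cannot be told apart.

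By complex, the median log2 fold change was 0.04 for complex II, 0.09 for complex III, 0.06 for complex IV and 0.09 for complex V. The spread between libraries of a genotype, as the SD of the median over the genes of a complex, was 0.0242, 0.0842, 0.290 and 0.293 on the log2 scale, larger than the medians of complexes IV and V. When single libraries were left out, the medians ranged from 0.0038 to 0.07 for complex II, 0.010 to 0.09 for complex III, -0.14 to 0.20 for complex IV and -0.12 to 0.26 for complex V. Complex IV was below 0 without Znf143 -/- 1, Znf143 f/f 1 or Znf143 f/f 3, and complex V without Znf143 -/- 1. For 8 of the 56 members the 2 genotypes did not overlap, 4 lower and 4 higher in Znf143 -/- cells, while 30.7% of all tested genes did not overlap (15.3% lower and 15.4% higher).

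**Figure D1:**
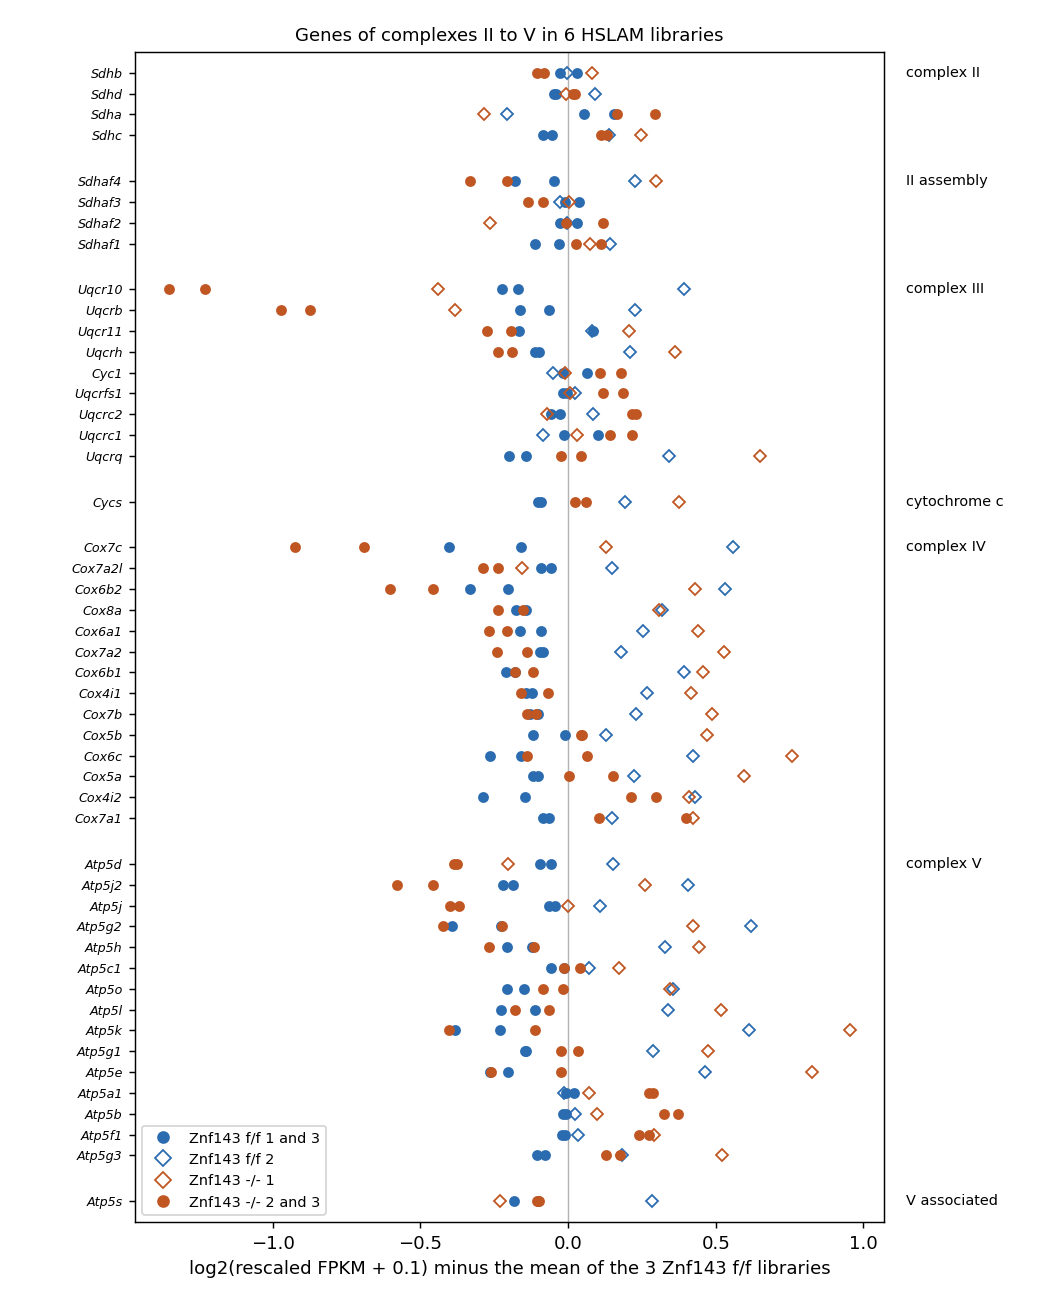
Each row is 1 of the 48 members with a mean rescaled FPKM of at least 1, pseudogenes left out, and each point is 1 library, placed by log2(rescaled FPKM + 0.1) minus the mean of the 3 Znf143 f/f libraries. Diamonds are the 2 libraries that stood apart, which lie to the right for most genes, and for Uqcr10 and Uqcrb the 3 Znf143 -/- libraries lie to the left of the 3 Znf143 f/f libraries.

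The displacement of both libraries touched most members. In Znf143 f/f 2, 43 of the 50 members other than pseudogenes were above the mean of Znf143 f/f 1 and 3, by a median of 0.32 on the log2 scale. In Znf143 -/- 1, 39 of 50 were above the mean of Znf143 -/- 2 and 3, by a median of 0.41. The 13 members with a listed length of at most 1000 bases were displaced by medians of 0.48 and 0.54, and the 37 longer ones by 0.23 and 0.33. Across these 50 genes, which share the same libraries, Spearman's rho between length and displacement was -0.43 and -0.33. Of the fragments of a library, the members together took 2.06% to 2.33% in Znf143 f/f and 2.12% to 2.51% in Znf143 -/- libraries, and the highest share of each genotype was in the library that stood apart. Summed erythroid markers were at 244 in Znf143 f/f 2, of which 142 was Car1, a carbonic anhydrase of early erythroid cells, and at 66.6 to 81.0 in the other 5 libraries. The sort was on lineage-negative cells, and the part of erythroid cells in the displacement was not tested.

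**Figure D2:**
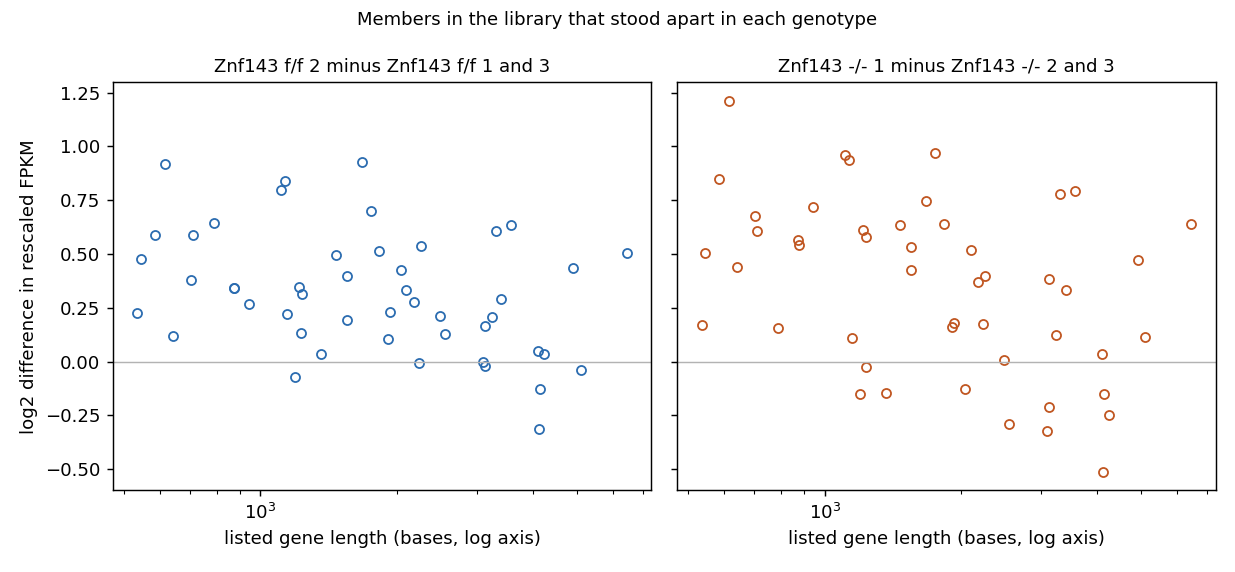
Each point is 1 of 48 members with a mean rescaled FPKM of at least 1, with its listed gene length on the horizontal axis and, on the vertical axis, the log2 difference between the library that stood apart and the mean of the close pair of the same genotype. In both panels most members lie above 0.

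With a shared coefficient for both libraries that stood apart, a fit added after the data were seen, 14 members passed, 7 higher (against 10.4% of all genes: Sdhc, Uqcrq, Cycs, Cox5a, Atp5f1, Atp5g1 and Atp5g3) and 7 lower (against 9.59%: Uqcr10, Uqcrb, Cox7c, Cox7a2l, Atp5d, Atp5j and Atp5j2). In the same fit 20.0% of all genes passed, beside 25.0% of the members. The coefficient takes Znf143 f/f 2 and Znf143 -/- 1 as displaced alike. Over all tested genes their deviations from the genotype mean correlated at 0.088, beside 0.105 for Znf143 f/f 1 and Znf143 -/- 2. The mean chi-square per gene between Znf143 f/f 2 and Znf143 -/- 1 was 124, so a difference between these 2 does not compare libraries known to be alike. Without both libraries, 20 members passed (12 higher, 8 lower), beside 42.4% of all genes (22.0% higher, 20.4% lower). On the values as deposited the fit with the coefficient called 2 members, Uqcr10 and Uqcrb, and 12.2% of all genes. When each close pair was averaged and counted once, 2 libraries against 2, no member passed in limma and 0.233% of all genes did, or 0 members and 0.601% of all genes with the coefficient. At an unadjusted p under 0.05 there was 1 member beside 9.87% of all genes, or 10 members (17.9%) beside 14.8% with the coefficient. Averaging also leaves fewer libraries, and its part in the lower counts was not tested.

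Among members with a mean rescaled FPKM of at least 1, the log2 fold changes furthest from 0 were in complex III. Uqcr10 encodes a small supernumerary subunit and lies on chromosome 11 (GRCm38, positions 4701973 to 4704342) on the minus strand. Its rescaled FPKM was 712, 1092 and 738 in Znf143 f/f and 612, 326 and 355 in Znf143 -/- libraries. Each Znf143 -/- library was below each Znf143 f/f library, and the library that stood apart was the highest of its genotype in both. The mean was 847 ± 212 against 431 ± 157 (SD, n = 3). The difference did not pass the test (log2 fold change -1.01, SE 0.286, 95% confidence interval -1.69 to -0.32, adjusted p = 0.0927 from limma), and a two-sided exact permutation test gave p = 0.1, the smallest that 3 against 3 libraries allow. Between the close pairs alone the difference was -1.09 on the log2 scale, and between the 2 libraries that stood apart -0.84. Uqcr10 was singled out after its values were seen, and its promoter stretch, shown above, holds ACTACAA without CCCANNATG.

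Uqcrb, another small supernumerary subunit, showed the same order of libraries. It lies on chromosome 13 (GRCm38, positions 66900617 to 66905378) on the minus strand, and exons of Gm10767 overlap it. Rescaled FPKM values were 740.0, 969.7 and 792 in Znf143 f/f and 635, 423 and 452 in Znf143 -/- libraries. The genotypes did not overlap, with a mean of 834 ± 120.4 against 503 ± 115 (SD, n = 3). The difference did not pass the test (log2 fold change -0.74, SE 0.196, 95% confidence interval -1.21 to -0.27, adjusted p = 0.0772 from limma), and it was -0.81 between the close pairs and -0.61 between the libraries that stood apart. Without Znf143 -/- 1, Uqcr10 and Uqcrb both passed, with log2 fold changes of -1.29 and -0.92 (adjusted p = 0.0264 and 0.0250 from limma). In that fit 2 of the 56 members (3.57%) and 11.0% of all genes passed.

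The other 7 genes of complex III overlapped between genotypes, with log2 fold changes of -0.09 to 0.22 and adjusted p of 0.469 to 0.962 from limma. Uqcr11, also a small subunit, had the highest level of the complex per listed length, at 940.0 to 1119 in Znf143 f/f and 873 to 1217 in Znf143 -/- libraries. Uqcrc2, a core subunit, had the lowest, at 69.5 to 76.7 in Znf143 f/f and 68.9 to 84.8 in Znf143 -/- libraries, and exons of Pdzd9 overlap it. Both ranges overlapped. Uqcrc1, the other core subunit, was at 165 to 188 and 179 to 204, and Uqcrfs1, the Rieske iron-sulfur subunit, at 170.2 to 175 and 173 to 196. Cyc1, which holds the heme that passes electrons to cytochrome c, was at 298, 276 and 282 in Znf143 f/f and 283, 323 and 308 in Znf143 -/- libraries. In Uqcrc1, Uqcrc2, Uqcrfs1 and Cyc1 the close pair of Znf143 -/- libraries was the highest. Uqcrh, the hinge subunit, was at 337 to 421 and 309 to 469, and Uqcrq at 164 to 238 and 185 to 295, with the highest value of each genotype in the library that stood apart. Cycs, the soluble cytochrome c, was at 56.1 to 68.8 in Znf143 f/f and 61.2 to 78.1 in Znf143 -/- libraries (adjusted p = 0.536 from limma).

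**Figure D3:**
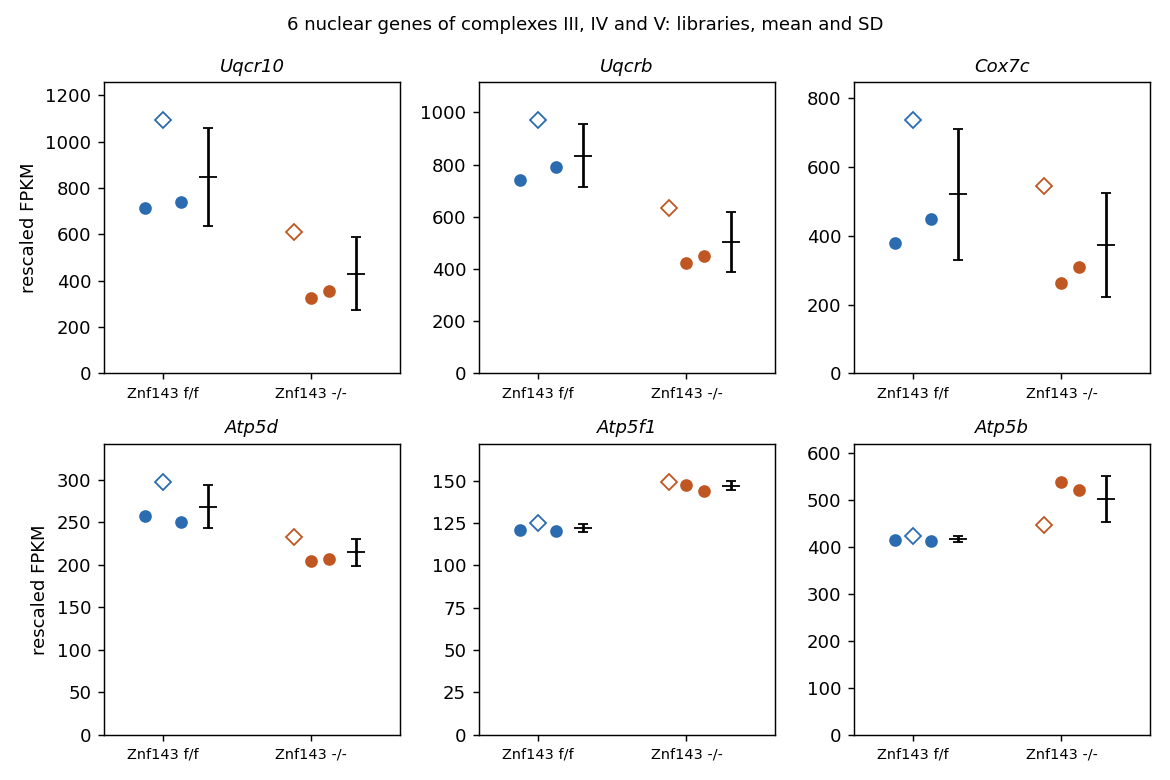
Rescaled FPKM of 6 members on axes that start at 0, with 1 point for each library, diamonds for the libraries that stood apart, and bars for the mean and SD of 3 libraries. Uqcr10, Uqcrb and Atp5d lie lower in the 3 Znf143 -/- libraries, Cox7c overlaps between genotypes, and Atp5f1 and Atp5b lie higher in the 3 Znf143 -/- libraries.

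In complex IV, 1 of the 16 genes (6.25%) did not overlap between genotypes, beside 30.7% of all tested genes. Cox7a2l encodes a relative of Cox7a2 that takes part in joining complexes III and IV into supercomplexes. Its rescaled FPKM was 176, 207 and 179.8 in Znf143 f/f and 168, 153 and 159 in Znf143 -/- libraries. Each Znf143 -/- library was lower, with a mean of 188 ± 17.2 against 159.9 ± 7.50 (SD, n = 3), and the difference did not pass the test (log2 fold change -0.23, SE 0.1003, adjusted p = 0.225 from limma). Cox7c encodes a small subunit and lies on chromosome 13 (GRCm38, positions 86044816 to 86046904) on the minus strand. Rescaled FPKM values were 378, 736 and 448 in Znf143 f/f and 546, 263 and 309 in Znf143 -/- libraries. Znf143 -/- 1 lay within the range of the Znf143 f/f libraries, and the difference did not pass the test (log2 fold change -0.50, SE 0.345, 95% confidence interval -1.32 to 0.33, adjusted p = 0.434 from limma). It was -0.53 between the close pairs and -0.43 between the libraries that stood apart.

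The other genes of complex IV overlapped between genotypes. Cox8a was the highest of the complex per listed length, at 1289 to 1813 in Znf143 f/f and 1235 to 1800.5 in Znf143 -/- libraries. Cox6a1 was at 1041 to 1389 and 968 to 1579.9, Cox6b1 at 799 to 1212 and 817 to 1270.2 and Cox4i1 at 679 to 901 and 671 to 1001. In these 4 genes, all of them nuclear-encoded subunits around the catalytic core, the library that stood apart was the highest of its genotype. Cox5a was at 135 to 172 and 148 to 223 and Cox5b, which binds zinc, at 267 to 318 and 299.6 to 403 (adjusted p = 0.445 and 0.497 from limma). Cox6c was at 157 to 252 and 171 to 318, Cox7b at 426 to 547 and 423 to 653 and Cox7a2 at 495 to 598 and 448 to 761, with adjusted p of 0.667 to 0.918 from limma.

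Complex IV has tissue isoforms, and the general isoform led in each group. Of its sum with Cox4i1, the lung isoform Cox4i2 made up 2.26% to 2.83% in Znf143 f/f and 2.52% to 3.25% in Znf143 -/- libraries. The testis isoform Cox6b2 was at 64.5 to 117 and 53.4 to 109, and of its sum with Cox6b1 it made up 7.33% to 8.83% in Znf143 f/f and 6.13% to 7.92% in Znf143 -/- libraries. The muscle isoform Cox7a1 was at 3.81 to 4.50 and 4.36 to 5.46, and of its sum with Cox7a2 it made up 0.748% to 0.776% in Znf143 f/f and 0.712% to 1.11% in Znf143 -/- libraries. These 3 shares overlapped between genotypes. Cox6a2, a muscle isoform, and Cox7b2, a testis isoform, were at most 1.02 in each library, and Cox6a2, the lowest of the complex by the mean of all 6, was listed at 0 in 3 of them. Cox4i2 was at 17.6, 26.2 and 15.9 in Znf143 f/f and 25.8, 22.5 and 23.9 in Znf143 -/- libraries. Without Znf143 f/f 2, it passed with a log2 fold change of 0.52 (adjusted p = 0.0306 from limma), as 1 of the 56 members beside 11.9% of all genes.

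In complex V, 3 genes were higher and 1 was lower in each Znf143 -/- library, and none passed the test. The share of its genes without overlap was 26.7%, beside 30.7% of all tested genes. Atp5b encodes the catalytic beta subunit and lies on chromosome 10 (GRCm38, positions 128083273 to 128090391) on the plus strand. Its rescaled FPKM was 414, 423 and 411 in Znf143 f/f and 446, 538 and 521 in Znf143 -/- libraries. The genotypes did not overlap, with a mean of 416 ± 5.90 against 502 ± 49.2 (SD, n = 3). The difference did not pass the test (log2 fold change 0.26, SE 0.114, adjusted p = 0.218 from limma). The alpha subunit gene Atp5a1 was at 343, 335 and 337 in Znf143 f/f and 355, 413 and 409 in Znf143 -/- libraries (log2 fold change 0.21, SE 0.104, adjusted p = 0.275 from limma), and exons of Haus1 overlap it. Both genes differed little between the libraries that stood apart, with log2 differences of 0.08 and 0.08, and more between the close pairs, with 0.36 and 0.27.

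Atp5f1, which encodes the b subunit of the peripheral stalk, varied little within genotypes. It lies on chromosome 3 (GRCm38, positions 105942698 to 105960099) on the minus strand, and exons of Wdr77 and Gm42890 overlap it. Rescaled FPKM values were 121, 125 and 120.2 in Znf143 f/f and 149, 148 and 144 in Znf143 -/- libraries. Each Znf143 -/- library was higher, with a mean of 122 ± 2.49 against 147 ± 2.64 (SD, n = 3). The difference did not pass the test (log2 fold change 0.27, SE 0.0755, 95% confidence interval 0.09 to 0.45, adjusted p = 0.0913 from limma), and it was 0.27 between the close pairs and 0.26 between the libraries that stood apart.

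Atp5d, the delta subunit of the central stalk, was the gene of complex V that was lower in each Znf143 -/- library. It lies on chromosome 10 (GRCm38, positions 80138632 to 80145818) on the plus strand, and exons of Cbarp overlap it. Its rescaled FPKM was 257, 298 and 251 in Znf143 f/f and 233, 205 and 206 in Znf143 -/- libraries. The genotypes did not overlap, with a mean of 269 ± 25.6 against 215 ± 15.5 (SD, n = 3). The difference did not pass the test (log2 fold change -0.32, SE 0.111, 95% confidence interval -0.59 to -0.06, adjusted p = 0.141 from limma), and it was -0.30 between the close pairs and -0.36 between the libraries that stood apart. Atp5o, the subunit that ties the catalytic head to the peripheral stalk and whose promoter stretch also holds both sets of letters, was at 172 to 255 in Znf143 f/f and 187 to 253 in Znf143 -/- libraries (log2 fold change 0.08, SE 0.190, adjusted p = 0.838 from limma).

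The remaining 10 genes of complex V overlapped between genotypes, with adjusted p of 0.300 to 0.971 from limma. Of the central stalk, Atp5c1 was at 375 to 409 and 386 to 439.5 and Atp5e at 235 to 390.1 and 236 to 501. Of the peripheral stalk, Atp5h, the highest of the complex per listed length by the mean of all 6 libraries, was at 392 to 569 and 376 to 616, though Atp5b and Atp5g3 had higher means in Znf143 -/- libraries (502 and 497 against 469.8), and Atp5j at 241 to 272 and 192 to 252, and exons of Gabpa overlap Atp5j. Of the membrane part, Atp5j2 was at 139 to 215 and 109 to 194, Atp5k at 289 to 576 and 285 to 730.3 and Atp5l, the lowest of the complex per listed length, at 14.0 to 20.7 and 14.4 to 23.5. Atp5e and Atp5k had their highest value in the libraries that stood apart. The c ring of the membrane rotor is encoded by 3 genes that give the same mature protein. Of their sum, Atp5g3 made up 67.6% to 72.9% in Znf143 f/f and 71.8% to 74.7% in Znf143 -/- libraries. Atp5g1 made up 18.9% to 19.7% in Znf143 f/f and 18.1% to 18.8% in Znf143 -/- libraries, and Atp5g2 made up 8.19% to 12.8% in Znf143 f/f and 7.11% to 9.36% in Znf143 -/- libraries. The share of Atp5g1 did not overlap, by a margin smaller than its SD within either genotype, and the other 2 shares overlapped.

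The median over the genes of complex II had the smallest spread between libraries (SD 0.0242 on the log2 scale), though Sdha alone had an SE of 0.174. Sdhb, the iron-sulfur subunit, was at 185, 180.5 and 178 in Znf143 f/f and 192, 168 and 171 in Znf143 -/- libraries, with overlap and a 95% confidence interval of the log2 fold change of -0.25 to 0.18. Sdhd, a membrane anchor and the highest of the complex, was at 315 to 347 in Znf143 f/f and 325 to 331 in Znf143 -/- libraries. Sdhc, the other anchor and the lowest of the complex, was at 73.2 to 85.6 and 84.0 to 92.1. Sdha, the flavoprotein that oxidises succinate, was at 77.7 to 99.9 and 73.8 to 110.1, and here the library that stood apart was the lowest of its genotype. Adjusted p over the 4 genes was 0.344 to 0.956 from limma. The assembly factors Sdhaf1, Sdhaf2, Sdhaf3 and Sdhaf4 had log2 fold changes of -0.08 to 0.07 and adjusted p of 0.679 to 0.837.

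Atp5s was at 15.1 to 20.9 in Znf143 f/f and 14.6 to 16.0 in Znf143 -/- libraries. The 6 pseudogenes, Uqcrh-ps1, Uqcrh-ps2, Atp5k-ps2, Atp5l2-ps, Atp5l-ps1 and Atp5l-ps2, had values of 0.151 to 4.83. Fragments of near-identical parent genes could be counted there, so these values are uncertain. Atp5l-ps1 did not overlap between genotypes, at 0.167 to 0.523 in Znf143 f/f and 0.552 to 1.02 in Znf143 -/- libraries (adjusted p = 0.305 from limma).

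**Figure D4:**
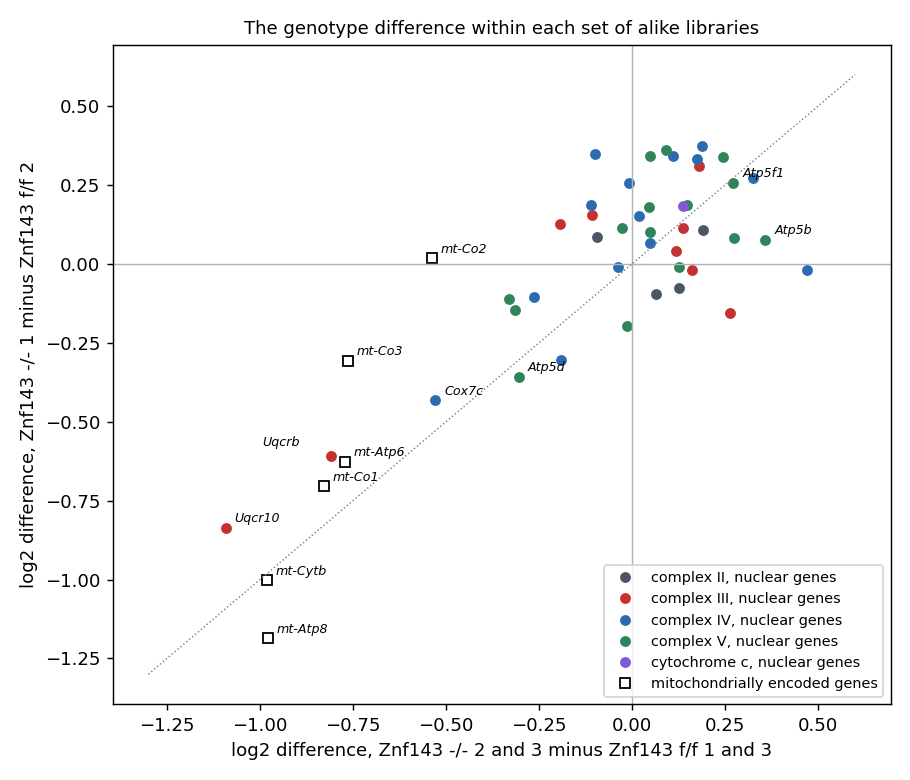
Each point is a gene, placed by its log2 difference between Znf143 -/- 2 and 3 and Znf143 f/f 1 and 3 on the horizontal axis and between Znf143 -/- 1 and Znf143 f/f 2 on the vertical axis. Of the 43 nuclear genes, Uqcr10, Uqcrb and Cox7c lie lowest on the horizontal axis, and 5 of the 6 mitochondrially encoded genes are below 0 on both axes.

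The mitochondrially encoded subunits of complexes III to V are no members by the rule and are given as the partners of the members. Of these 6 genes, 4 fell in Znf143 -/- cells at an adjusted p under 0.05 from limma, mt-Cytb, mt-Co3, mt-Atp6 and mt-Atp8, while 2.99% of all tested genes were called lower. The median log2 fold change of the 6 genes was -0.76, and 5 were lower without overlap between genotypes, beside 15.3% of all tested genes. mt-Cytb, the cytochrome b of complex III, was at 3453, 3666 and 3394 in Znf143 f/f and 1831, 1761 and 1708 in Znf143 -/- libraries. The Znf143 -/- mean was 50.4% of the Znf143 f/f mean (log2 fold change -0.99, SE 0.163, 95% confidence interval -1.38 to -0.60, adjusted p = 0.0208 from limma), and both libraries that stood apart lay near the others of their genotype. mt-Co1, the catalytic core of complex IV, was at 3664, 3081 and 3374 in Znf143 f/f and 1892, 2088 and 1879 in Znf143 -/- libraries. The genotypes did not overlap, and the difference missed the threshold (log2 fold change -0.79, SE 0.174, 95% confidence interval -1.20 to -0.37, adjusted p = 0.0507 from limma).

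The other 4 genes, mt-Co2, mt-Co3, mt-Atp6 and mt-Atp8, were at 1.00 to 9.53, far below mt-Co1 and mt-Cytb. In these 4 genes each window of 76 bases, the read length, was also present exactly in a nuclear place of GRCm38 (100%), against 39.4% of windows in mt-Co1 and 0 of 1069 in mt-Cytb. How reads with several places were counted is not given in the sources used here. The values of these 4 genes are therefore uncertain, and so in part is that of mt-Co1. mt-Atp8 rested on 9 to 24 fragments in a library, and exons of mt-Atp8 and mt-Co3 overlap mt-Atp6. mt-Co2 overlapped between genotypes (adjusted p = 0.223 from limma).

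Set against a nuclear gene of the same complex, the ratio of mt-Cytb to Cyc1 was 11.6, 13.3 and 12.03 in Znf143 f/f and 6.46, 5.46 and 5.55 in Znf143 -/- libraries. The ratio of mt-Co1 to Cox4i1 was 5.40, 3.42 and 4.90 in Znf143 f/f and 1.89, 3.11 and 2.63 in Znf143 -/- libraries. Both ratios, chosen after the values were seen, do not depend on the scaling of a library, and neither overlapped between genotypes. They do depend on the nuclear gene that is chosen. Cyc1 was at 106.7% of its Znf143 f/f mean, whereas Uqcr10 and Uqcrb of the same complex were at 50.8% and 60.3%, beside 50.4% for mt-Cytb. The other nuclear genes of complex III overlapped between genotypes. Of the mitochondrially encoded subunits of complex I, mt-Nd4 and mt-Nd5 fell, with log2 fold changes of -1.04 and -0.73 (adjusted p = 0.0090 and 0.0257 from limma). Of their windows of 76 bases, 801 of 1303 (61.5%) in mt-Nd4 and 27 of 1749 (1.54%) in mt-Nd5 had an exact nuclear copy, so the value of mt-Nd4 is uncertain in the same way. mt-Nd2, mt-Nd3 and mt-Nd6 were lower without overlap, at 67.0%, 85.9% and 52.7% of the Znf143 f/f mean. So were the ribosomal RNAs mt-Rnr1 and mt-Rnr2, at 48.5% and 56.4%, while mt-Nd4l, at most 0.536, overlapped. None of these passed (adjusted p of 0.0565 to 0.333 from limma), and their nuclear copies were not searched. The mitochondrial genes of the deposited table took 2.82% to 3.14% of fragments in Znf143 f/f and 1.68% to 2.02% in Znf143 -/- libraries. mt-Nd1, with 0 of 882 windows in the nuclear genome, was at 2840.3 to 3085 in Znf143 f/f and 2838 to 3184 in Znf143 -/- libraries, with overlap (log2 fold change 0.05, SE 0.178, adjusted p = 0.894 from limma). The calls depended on how the libraries were counted. With the coefficient for the libraries that stood apart 5 of the 6 genes of complexes III to V passed (beside 20.0% of all genes), and on the values as deposited 1 (beside 4.32%). With each close pair counted once 0 passed (beside 0.233% of all genes), or 1, mt-Cytb, with the coefficient (beside 0.601%). Without Znf143 f/f 3, Znf143 -/- 2 or Znf143 -/- 3 no gene of the 6 passed in limma, and without Znf143 f/f 1 there was 1 (beside 370 of 19329 tested genes). The fitted difference was below 0 for the 6 genes under each alternative that was run.

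**Figure D5:**
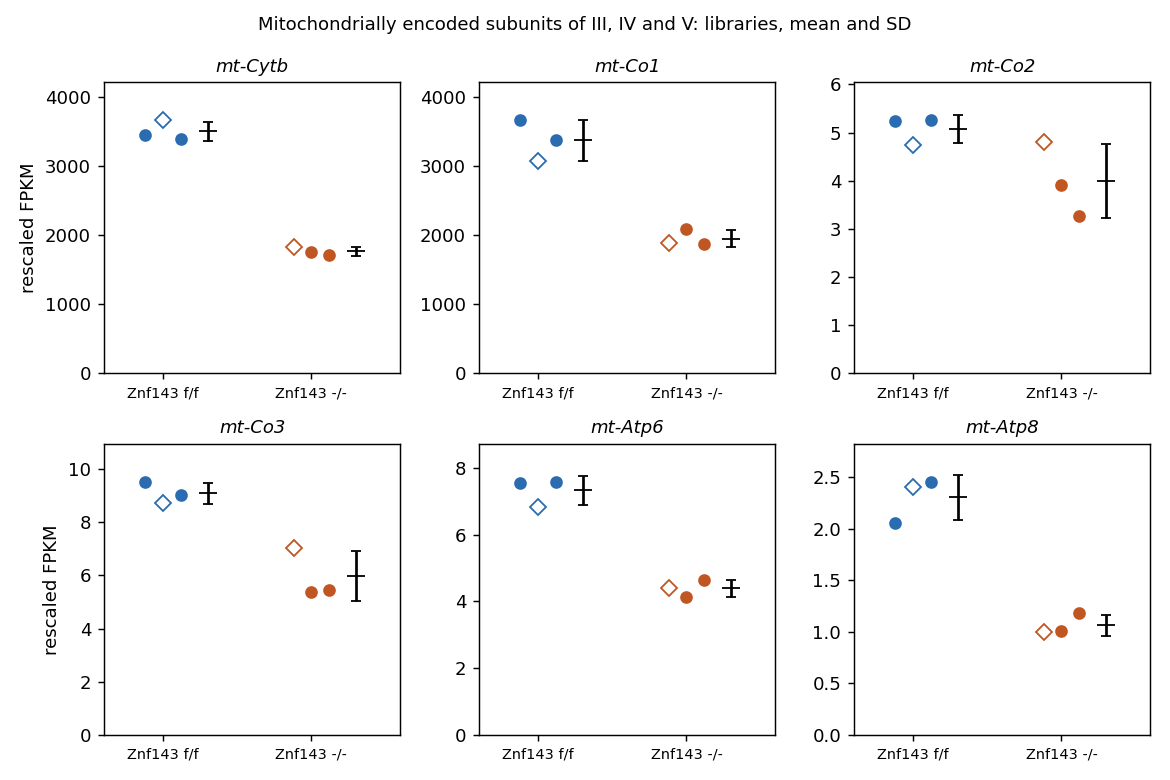
Rescaled FPKM of the 6 mitochondrially encoded genes of complexes III, IV and V, with 1 point for each library, diamonds for the libraries that stood apart, bars for the mean and SD of 3 libraries, and axes that start at 0. mt-Cytb and mt-Co1 lie above 1000 and the other 4 genes below 10, and of the 6 genes mt-Co2 overlaps between genotypes.

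Other nuclear genes of the same pathway were counted by list. Of 29 assembly factors of complexes III to V in the table, 1 passed, Cox18, which helps to insert mt-Co2 into the membrane, beside a background of 3.0% of genes called higher. It was at 18.2, 20.00 and 18.1 in Znf143 f/f and 30.1, 29.7 and 30.9 in Znf143 -/- libraries. Each Znf143 -/- library was higher (log2 fold change 0.69, SE 0.0782, 95% confidence interval 0.50 to 0.88, adjusted p = 0.0068 from limma). The call was lost without Znf143 f/f 3 (adjusted p = 0.0518 from limma), without Znf143 -/- 3 (0.0582) and with each close pair counted once (0.236, or 0.105 with the coefficient), with a log2 fold change of 0.66 to 0.67 in these fits. Coa3, an early assembly factor of complex IV chosen after its values were seen, was at 246, 342 and 251 against 212, 176 and 175, without overlap (log2 fold change -0.57, SE 0.160, adjusted p = 0.0918 from limma). The median log2 fold change of the assembly factors was 0.03. Of 10 other subunits and partners, among them Ndufa4, the ATP synthase inhibitor Atpif1 and the adenine nucleotide carriers Slc25a4 and Slc25a5, 0 passed in limma, with 0 at an unadjusted p under 0.05 and a median of 0.03. Of 11 regulators of respiratory genes, such as Nrf1, Gabpa, Tfam and Ppargc1b, 0 passed in limma, with a median of -0.23. At an unadjusted p under 0.05 in limma there were 4, each of them lower (Pprc1, Gabpa, Yy1 and Hif1a), beside 24.2% of all genes. For 5 of the 11 (45.5%) the genotypes did not overlap, these 4 lower and Tfam higher, beside 30.7% of all tested genes.

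The study's list of ZNF143 direct targets held 11 members, Sdhb, Uqcrb, Uqcrc2, Cyc1, Cox4i1, Cox7c, Atp5d, Atp5e, Atp5g1, Atp5j2 and Atp5o. The list was drawn with the expression of these libraries, so it is no independent evidence of direction. Of the 11 genes, 5 had a log2 fold change below 0, their median was 0.06, and 0 passed in limma, with 2 (18.2%) at an unadjusted p under 0.05 (Uqcrb and Atp5d), beside 24.2% of all genes. Of the 45 other members, 15 were below 0, with a median of 0.07. Uqcr10 was not on the list.

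Some markers of other cell types were called, beside 3.0% of all tested genes called higher and 2.99% called lower. Of 9 neutrophil markers 5 rose, Elane, Ctsg, Camp, Ngp and S100a8, and the list summed to 202 to 269 in Znf143 f/f and 272 to 433 in Znf143 -/- libraries, with Prtn3, which overlapped, the largest part in each library. Of 9 erythroid markers 1 fell, Hbb-bt. Of 4 monocyte and macrophage markers 1 rose, Csf1r, at no more than 0.264 in any library, and the list summed to 16.2 to 19.9 in Znf143 f/f and 19.4 to 23.5 in Znf143 -/- libraries. The 6 megakaryocyte markers summed to 546 to 628 in Znf143 f/f and 678 to 1019 in Znf143 -/- libraries. Of them 0 were called and 3 were at an unadjusted p under 0.05 in limma, beside 24.2% of all genes. B cell markers summed to 42.9 to 51.8 in Znf143 f/f and 41.3 to 47.95 in Znf143 -/- libraries, nearly all of it Cd79b, with Cd79a at or near 0 and 0 of 2 tested called. T cell markers summed to at most 0.983, with Cd3e and Cd3g at or near 0 and 0 of 2 tested called, and stromal and endothelial markers to 3.75 to 6.56 in Znf143 f/f and 5.02 to 8.43 in Znf143 -/- libraries, with 0 of 4 tested called. The part of these cells in the differences of the mitochondrially encoded genes, Uqcr10 and Uqcrb was not tested.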

How the data were processed

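RNA-seq libraries of HSLAM cells from 3 Znf143 f/f and 3 Znf143 -/- mice were used; ChIP-seq and Hi-C samples were not analysed here. Per the methods, the authors made Smart-seq v4 and Nextera XT libraries, read in pairs of 76 bases, trimmed with TrimGalore, aligned with STAR to GRCm38 and counted with FeatureCounts, and the deposited values are FPKM per gene, with listed gene length. The kit does not keep strand, so reads of overlapping genes on opposite strands cannot be told apart. The deposited table also holds the authors' own comparison (mean normalised count, log2 fold change, its error, statistic, p and adjusted p), which was not used.

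FPKM times length gave whole fragments for 99.986% of 138696 values (tolerance 0.05). The third Znf143 -/- library carried the FPKM divisor of the second, so FPKM was rescaled by median-of-ratios size factors (19046 genes). log2(FPKM + 0.1) of genes with a mean of at least 0.1 was fitted with limma 3.58.1 in R 4.3.3 (variance trend, Benjamini-Hochberg, threshold 0.05), without a block. A fold change on this scale understates the change of low genes. The script was tested on simulated data. The libraries are biological replicates per the methods.

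The members and gene lists were chosen with earlier results of these data known. Named by rule were Zfp143 and Ctcf, called members, the highest and lowest member of each complex, isoform groups, members on the direct-target list and called genes of other lists; other genes named were chosen after their values were seen. Alternatives were the pseudocount (0.01 or 1), the filter (none or 1), no variance trend, a replicate block, other scalings, voom and leaving out each library. Those on the libraries that stood apart were chosen after seeing the data. Promoters came from RefSeq, and 16 members had no match. Single values of some listed markers are not reported here.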

Additional observations from a re-analysis of the deposited data

How the results depend on the processing

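Of the 56 members, 0 passed in limma. The count was 14 with a coefficient for the 2 libraries that stood apart, 2 with it on the values as deposited, 20 without both libraries, 1 with the third Znf143 -/- library scaled by its own total, 1 with voom, and 0 to 2 when single libraries were left out. Of all genes, 1154 passed (578 higher, 576 lower), 833 on the values as deposited (529 higher, 304 lower), 3863 with the coefficient, 2354 with it as deposited, 8115 without both libraries, 45 with close pairs averaged, 116 with the coefficient too, and 223 to 2286 when single libraries were left out (2286 without Znf143 f/f 2, 223 without Znf143 -/- 3). The median of complex II, 0.035, was 0.011 with close pairs averaged with or without the coefficient, 0.065 by the own total, 0.15 as deposited with or without the coefficient, 0.095 without both libraries and 0.0038 to 0.071 when single libraries were left out. That of complex III, 0.092, was 0.21 as deposited with or without the coefficient and 0.010 to 0.093 when single libraries were left out. The cause was not tested. When single libraries were left out, the medians of the members (-0.11 to 0.16), complex IV (-0.14 to 0.20) and complex V (-0.12 to 0.26) fell on both sides of 0, and no called value changed direction. Same-numbered libraries did not deviate together (correlations of -0.095, -0.088 and 0.036), so the numbers, which no source ties to the litters, were not taken as pairs; with the replicate block 191 genes, 0 members and 0 of the 6 mitochondrially encoded subunits passed. The part of sequencing depth in the error of the members was not tested.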
